A study of Mus musculus with 10 samples.

Results

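The nuclear genes for the subunits of the mitochondrial respiratory chain and ATP synthase were compared between hippocampal neuron cultures under endoplasmic reticulum (ER) stress and control cultures. The members were taken by symbol from GENCODE M21: protein-coding genes starting with Ndufa, Ndufb, Ndufc, Ndufs, Ndufv, Uqcr, Cox4i, Cox5, Cox6, Cox7 or Atp5, with Sdha to Sdhd, Cyc1 and Cycs, and without the Ndufaf assembly genes. This gave 84 of the 48709 gene rows, of which 36 belong to complex I, 4 to complex II, 9 to complex III, 17 to complex IV and 17 to complex V (ATP synthase), with Cycs as the mobile carrier. Ndufa4 and Ndufa4l2 were counted with complex IV, where the Ndufa4 protein is found. Polyadenylated RNA was sequenced from primary neurons of mouse hippocampus kept for 10 days in vitro. In 6 libraries the cultures had received tunicamycin, which blocks N-linked glycosylation and so causes misfolding in the ER, at 2 ug/mL for 6 h, and in 4 libraries DMSO, the solvent, for 6 h. The labels give no strain, age or number of animals. They also do not say whether the libraries come from separate cultures, so p-values measure only the spread between these libraries.

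The respiratory chain passes electrons from NADH (complex I) and succinate (complex II) through complex III and cytochrome c to oxygen at complex IV, and complexes I, III and IV pump protons that drive ATP synthase. Most subunits are encoded in the nucleus and imported, while a few catalytic membrane subunits of complexes I, III, IV and V are encoded in mitochondrial DNA. Neurons draw most of their ATP from this pathway. Nuclear respiratory factor 1 (NRF1), the ETS-family factor GABP and YY1 are known regulators of many of these nuclear genes.

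Promoter sequences are shown for 5 members. Sdhd and Sdhb are subunits of the same complex whose responses are set against each other further on. Uqcrh, Cox7b and Atp5g3 are each among the clearest falls of their own complex. The sequences are RefSeq windows on GRCm38.p6, from 250 bases before to 50 bases after the transcript start, 5′ to 3′ on the gene's strand. Capitals mark a match to GCGC and TGCGC with any base between them (NRF1), CCGGAAG (ETS) or AAGATGGC (YY1) on either strand.
Sdhd, chr9:50603800-50604099, minus strand: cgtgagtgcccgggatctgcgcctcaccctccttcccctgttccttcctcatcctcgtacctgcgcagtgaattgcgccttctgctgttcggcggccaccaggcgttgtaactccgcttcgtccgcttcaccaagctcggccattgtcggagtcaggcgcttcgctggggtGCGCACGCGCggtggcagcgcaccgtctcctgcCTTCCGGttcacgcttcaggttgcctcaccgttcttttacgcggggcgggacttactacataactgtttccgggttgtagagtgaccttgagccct
Sdhb, chr4:140961021-140961320, plus strand: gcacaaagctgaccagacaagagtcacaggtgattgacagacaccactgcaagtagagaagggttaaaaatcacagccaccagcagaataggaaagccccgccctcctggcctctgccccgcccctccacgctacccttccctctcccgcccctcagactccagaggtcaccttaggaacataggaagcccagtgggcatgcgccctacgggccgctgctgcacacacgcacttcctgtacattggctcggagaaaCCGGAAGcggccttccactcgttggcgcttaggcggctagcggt
Uqcrh, chr4:116075021-116075320, minus strand: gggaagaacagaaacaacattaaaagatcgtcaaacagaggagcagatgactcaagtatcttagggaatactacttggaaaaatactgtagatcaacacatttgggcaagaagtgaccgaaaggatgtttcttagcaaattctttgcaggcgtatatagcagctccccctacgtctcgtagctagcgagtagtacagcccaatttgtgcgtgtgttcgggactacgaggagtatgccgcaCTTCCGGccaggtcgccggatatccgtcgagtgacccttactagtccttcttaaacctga
Cox7b, chrX:106015450-106015749, plus strand: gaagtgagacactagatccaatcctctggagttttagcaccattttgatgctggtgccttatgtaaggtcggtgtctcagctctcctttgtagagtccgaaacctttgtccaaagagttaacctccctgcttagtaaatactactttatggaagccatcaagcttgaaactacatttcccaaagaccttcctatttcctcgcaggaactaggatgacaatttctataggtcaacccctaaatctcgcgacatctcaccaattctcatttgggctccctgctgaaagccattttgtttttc
Atp5g3, chr2:73911277-73911576, minus strand: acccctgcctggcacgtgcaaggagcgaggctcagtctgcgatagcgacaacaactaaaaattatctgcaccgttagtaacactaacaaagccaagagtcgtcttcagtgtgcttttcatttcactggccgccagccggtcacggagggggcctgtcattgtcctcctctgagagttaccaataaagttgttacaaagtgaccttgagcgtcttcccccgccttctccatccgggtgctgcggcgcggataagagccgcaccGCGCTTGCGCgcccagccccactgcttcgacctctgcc
Sdhd carried an NRF1 and an ETS match, Sdhb and Uqcrh an ETS match each, Atp5g3 an NRF1 match, and Cox7b none of these letters. The window of Ndufb3, the complex I member with the smallest p-value, is not shown and carried no match either. RefSeq windows were found for 66 members, with 71 windows in all. At least 1 of the 3 motifs occurred in 36 of the 71 windows, or 50.7%, against 14.7% of all 32851 promoter windows of the same length. NRF1 matches were in 25.4% of member windows and 4.6% of all windows, ETS matches in 21.1% of member windows and 8.86% of all, and YY1 matches in 12.7% of member windows and 2.75% of all. Among genes with a window, the NRF1 motif was found in 14 of 53 that fell with tunicamycin and in 3 of 13 that were not called. The ETS motif was found in 12 of the 53 that fell and in 3 of the 13 not called, and the YY1 motif in 8 of the 53 and in 1 of the 13. No test was made of these shares.

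Transcripts of the chain fell in all 5 complexes 6 h after tunicamycin, and the falls were small for most genes. Of the 81 members with enough counts to be tested, 64 passed edgeR's quasi-likelihood test as lower with tunicamycin (adjusted p under 0.05), 1 as higher and 16 did not pass. Over all 15660 genes tested, 32.5% were called lower and 31.8% higher, so the 79.0% of members called lower stands well above that background. Among genes with a mean of at least 10 CPM (counts per 1e6 counts of the library), the background was 34.4% lower and 40.8% higher. The median log2 fold change of the members was -0.23, a median fold of 0.851, beside -0.02 over all genes tested.

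All tunicamycin libraries lay below all DMSO libraries for 52 members, where 23.9% of all genes did so, and above them for 1 member, where 27% did. For 14 members the call was lower at no more than 0.75 of the DMSO level, a share close to the 13.7% of all genes. The 3 members left untested were Cox4i2, Cox7b2 and Ndufa4l2, isoforms known from lung, testis and hypoxic cells. They had at most 8 counts in any tunicamycin library and 6 in any DMSO library. Counts of 20 members may include reads of near-identical copies elsewhere in the genome, or may lack reads that match such copies. For 11 members at least 10% of the exonic bases are shared with an overlapping gene. With both kinds left out, 44 of 51 tested members were lower and none higher, with a median of -0.26.

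**Figure D1:**
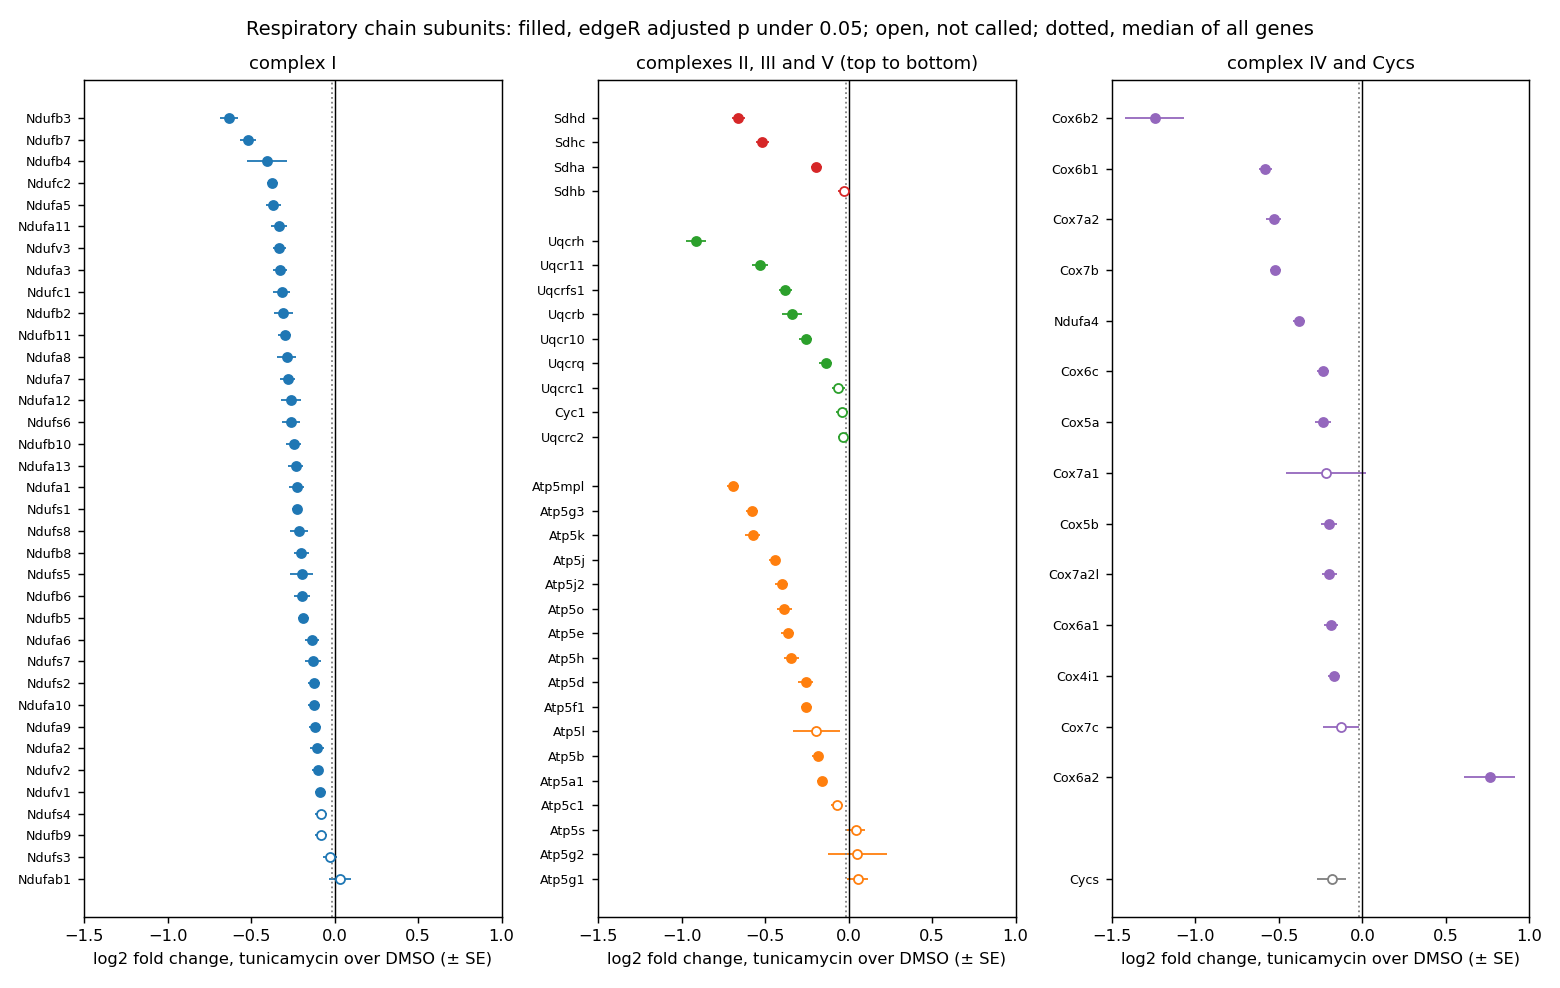
Log2 fold change of each tested subunit gene, tunicamycin over DMSO (x axis, bars ± SE), by complex. Most filled points, which passed edgeR's test, lie between 0 and -0.5, Uqcrh and Cox6b2 lie farthest to the left, and Cox6a2 is the filled point to the right of 0.

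The cultures were under ER stress and held cells other than neurons. All 6 genes fixed as a check of the treatment were higher, with Hspa5, the main ER chaperone, at 3211 ± 150 CPM with tunicamycin and 613 ± 44.6 CPM with DMSO (SD, n = 6 and 4). Depth was 2.11e+07 to 2.92e+07 counts per library. All 12 neuron markers were detected, and 10 were called lower, led by Nefh and Tubb3 (log2 -1.23 and -0.92), with a summed level of 6626 to 6975 CPM in tunicamycin libraries and 7833 to 8317 CPM in DMSO libraries. All 11 astrocyte markers were lower, Slc1a3 and Aldoc at -0.83 and -0.81, with sums of 2232 to 2470 CPM with tunicamycin and 3262 to 3667 CPM with DMSO, and all 8 proliferation markers were lower, Mcm3 and Mcm5 at -0.89 and -0.91 (sums of 68.6 to 81.5 CPM with tunicamycin, 110 to 137 CPM with DMSO). Of 7 tested microglia markers 5 were lower, Tyrobp and C1qc at -1.19 and -1.18 (11.9 to 14.5 CPM with tunicamycin, 16.5 to 20.3 CPM with DMSO), and of 8 tested oligodendrocyte markers 4 were lower, among them Cnp and Olig1 at -0.73 and -0.88, and 2 higher (111 to 134 CPM with tunicamycin, 180 to 224 CPM with DMSO). None of these markers was at 0 in every library. Their part in the fall of chain transcripts was not tested, and fewer cells of a type cannot be told apart from less RNA per cell in these bulk samples.

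Summed over its members, each complex took a smaller share of the library with tunicamycin, and the groups did not overlap for any complex. All members together held 7345 to 7995 CPM in tunicamycin libraries and 8686 to 9422 CPM in DMSO libraries. The ratio of mean sums, tunicamycin over DMSO, was 0.804 for complex IV, 0.825 for complex II, 0.853 for complex V, 0.874 for complex III and 0.875 for complex I. Sums in CPM give more weight to long and abundant transcripts. The median log2 fold change per gene put the complexes in another order. It was -0.35 for complex II, -0.26 for complexes V and III, and -0.23 for complexes IV and I.

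Within the chain, the balance between complexes shifted by small amounts. Complex IV made up 13.1% to 13.6% of the summed chain transcripts with tunicamycin and 14.1% to 14.3% with DMSO, and complex II 7.36% to 7.55% with tunicamycin and 7.67% to 7.81% with DMSO. Complex I held 25.3% to 25.5% with tunicamycin and 24.5% to 24.95% with DMSO, and complex III 12.1% to 12.3% with tunicamycin and 11.8% to 11.99% with DMSO. These 4 shares did not overlap between the groups, while that of complex V did (41.2% to 41.6% with tunicamycin and 41.1% to 41.6% with DMSO). The shares add up to the whole chain, so a lower share of some complexes is matched by a higher share of others, and no test was made.

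**Figure D2:**
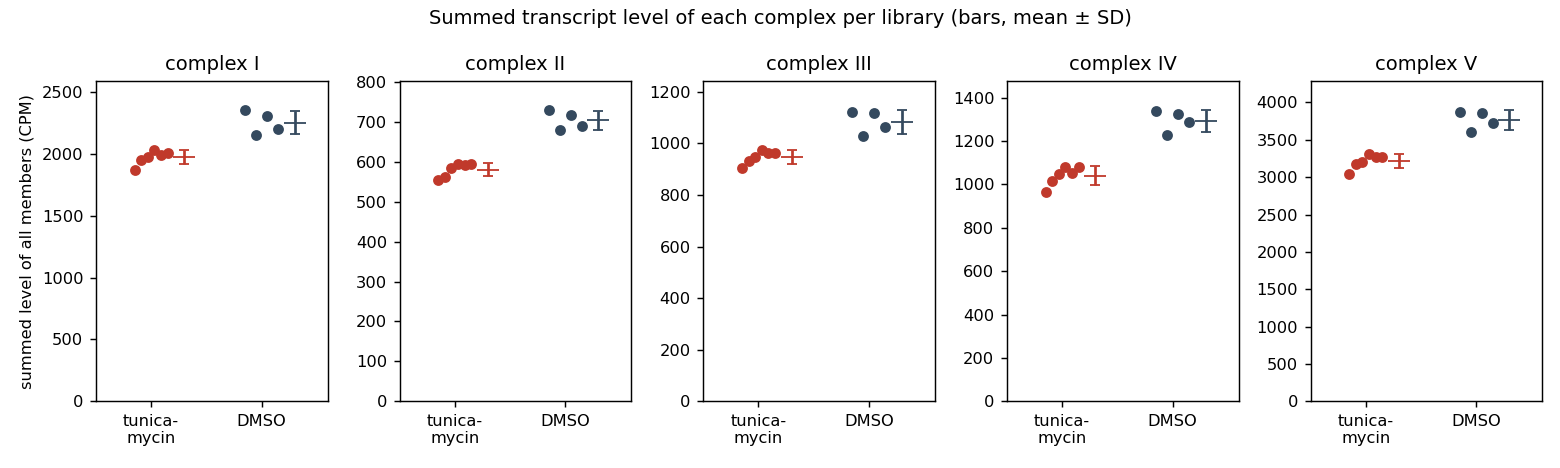
Summed level in CPM of all members of each complex (y axis, from 0), with 1 point per library and the mean ± SD beside it, for 6 tunicamycin and 4 DMSO libraries. In each panel all tunicamycin points lie below all DMSO points, by ratios of 0.804 (complex IV) to 0.875 (complex I).

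Complex I, the NADH dehydrogenase, had 32 of its 36 members lower and none higher, with a median log2 fold change of -0.23. The 29 accessory subunits, which surround the catalytic core and are needed for assembly, had 26 called lower and a median of -0.26. The 7 nuclear core subunits, which carry the flavin and the iron-sulfur clusters, had 6 called lower and a median of -0.12. This grouping into core and accessory genes, like the subunit classes used for the other complexes, was assigned after the values had been seen.

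Ndufb3 and Ndufb7, accessory subunits of the membrane arm, had the smallest p-values of complex I. Ndufb3 (ENSMUSG00000026032, chr1:58586384-58595964, GRCm38) had 21.8, 23.6 and 25.5 CPM as the lowest, median and highest of the tunicamycin libraries, against 39.8, 35.9, 37.2 and 33.5 CPM in the DMSO libraries. No tunicamycin library reached the lowest DMSO library. Ndufb3 had a log2 fold change of -0.63 ± 0.05 (SE; adjusted p = 7.29e-10 by edgeR). Ndufb7 (ENSMUSG00000033938, chr8:83566671-83571626) had 30.6, 32.7 and 33.8 CPM as lowest, median and highest with tunicamycin, against 49.7, 42.4, 48.9 and 44.5 CPM with DMSO. Again the groups stood apart, with a log2 fold change of -0.52 ± 0.05 (adjusted p = 2.69e-09 by edgeR).

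Other accessory genes with clear falls were Ndufc2 (log2 -0.37), Ndufa5 (-0.37), Ndufa11 (-0.34) and Ndufv3 (-0.33), Ndufa11 standing at -0.17 with a trend of the fold changes on GC content and exonic length removed. Among the core genes, Ndufs1, the largest subunit and a carrier of iron-sulfur clusters, had the greatest fall. Ndufs1 averaged 113 ± 2.23 CPM with tunicamycin and 132 ± 2.73 CPM with DMSO (SD, n = 6 and 4), a log2 fold change of -0.22 ± 0.03 (adjusted p = 1.45e-06 by edgeR). The flavin-binding Ndufv1 (log2 -0.08) and its partner Ndufv2 (-0.10) passed the test with overlapping libraries, as did Ndufs7 (-0.13), which holds the last iron-sulfur cluster before ubiquinone, and the accessory Ndufa2 (-0.11). With the GC and length trend removed, Ndufs7 (log2 0.0053), Ndufa2 (0.0048), Ndufv1 (-0.0048), Ndufa13 (-0.07), Ndufs8 (-0.09), Ndufs5 (-0.12) and Ndufa6 (-0.05) were no longer called, and 26 members of the complex were lower. Several calls in complex I depended on single libraries. Ndufv1 did not pass without any 1 of DMSO replicates 1, 3 and 4 and tunicamycin replicates 1, 2 and 4 (log2 -0.08 to -0.06). Ndufa2 did not pass without any 1 of DMSO replicates 3 and 4 and tunicamycin replicates 1, 2 and 3 (-0.10 to -0.08), and Ndufs7 not without DMSO replicate 1 (-0.11) or 3 (-0.10). Ndufv2 lost its call without DMSO replicate 1 (-0.08), Ndufa6 without DMSO replicate 3 (-0.09), and Ndufs5 without DMSO replicate 3 (-0.17) or 4 (-0.14). Ndufb4, a membrane arm subunit with near-identical copies, was called at -0.40 from only 3.28 ± 0.58 CPM with tunicamycin and 4.29 ± 0.317 CPM with DMSO (SD, n = 6 and 4).

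The other 4 members of complex I did not pass the test. Ndufs4, an accessory subunit whose loss in mice gives a Leigh-like brain disease, had a log2 fold change of -0.08 ± 0.04 (adjusted p = 0.0505 by edgeR), and was called at -0.14 with the GC and length trend removed. Ndufb9 had -0.08 ± 0.04 (edgeR adjusted p = 0.0569), and with that trend removed it was called in the other direction at 0.07. Without DMSO replicate 2 both passed as lower (-0.10 for Ndufs4 and -0.11 for Ndufb9), and so did they without tunicamycin replicate 4, and Ndufs4 without tunicamycin replicate 1 (-0.09 each). The core subunit Ndufs3 had -0.03 ± 0.04, and Ndufab1, the mitochondrial acyl carrier protein that also serves fatty acid synthesis, had 0.03 ± 0.07. Both Ndufs3 and Ndufab1 have near-identical copies.

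Complex II, succinate dehydrogenase, is the only complex of the chain encoded wholly in the nucleus, and its 4 genes split by place in the enzyme. The anchors Sdhc and Sdhd, which hold the enzyme in the inner membrane and bind heme and ubiquinone, had the large falls. The catalytic subunits, Sdha, the flavoprotein, and Sdhb, the iron-sulfur protein, had log2 fold changes of -0.19 and -0.03. The summed level of the anchors was 153 to 170 CPM with tunicamycin and 235 to 259 CPM with DMSO, a ratio of 0.664. For the catalytic pair the sums were 401 to 425 CPM with tunicamycin and 443 to 469 CPM with DMSO, a ratio of 0.913.

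Sdhd (ENSMUSG00000000171, chr9:50596357-50603812) had 85.6, 93.3 and 95.5 CPM as lowest, median and highest with tunicamycin, against 150, 135, 149 and 142 CPM with DMSO. Sdhc (ENSMUSG00000058076, chr1:171127165-171150603) had 67.8, 73.7 and 76.3 CPM with tunicamycin, against 110, 100.1, 105 and 102 CPM with DMSO. For each anchor every tunicamycin library lay well under every DMSO library. Sdhd had a log2 fold change of -0.66 ± 0.04 (adjusted p = 1.21e-12 by edgeR) and Sdhc of -0.52 ± 0.04 (edgeR adjusted p = 4.78e-11).

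Sdha averaged 279 ± 8.41 CPM with tunicamycin and 316 ± 7.99 CPM with DMSO (SD, n = 6 and 4), without overlap and with a log2 fold change of -0.19 ± 0.03 (adjusted p = 1.12e-05 by edgeR). Sdhb had 132, 138 and 140 CPM as lowest, median and highest with tunicamycin, against 150, 133, 138 and 135 CPM with DMSO. The Sdhb groups overlapped almost wholly, and its log2 fold change of -0.03 ± 0.03 did not pass (edgeR adjusted p = 0.486). Under upper-quartile scaling, which moved the median of all genes by -0.11, Sdhb was called at -0.14.

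Ratios within a library need no scaling between libraries, and they set these genes apart directly. The Sdhd to Sdhb count ratio was 0.650 to 0.693 in tunicamycin libraries and 1.001 to 1.085 in DMSO libraries. Its mean log2 value differed by -0.63 (two-sided exact permutation test, p = 0.00476, the smallest that the 210 splits allow; adjusted p = 0.00794 over 10 pairs). For Sdhc to Sdha the ratio was 0.252 to 0.273 with tunicamycin and 0.322 to 0.343 with DMSO, a difference of -0.32 with the same exact p. The anchors also differed from each other: the Sdhd to Sdhc ratio was 1.21 to 1.30 with tunicamycin and 1.35 to 1.42 with DMSO, a log2 difference of -0.14, again at the smallest exact p. These pairs were chosen with the falls of Sdhc and Sdhd already known.

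Complex III, the cytochrome bc1 complex, showed a contrast between its small subunits and its large core proteins. Of 9 members 6 were lower and none higher, with a median log2 fold change of -0.26. That median was -0.12 with the GC and length trend removed, where 7 were lower and 1 higher, and -0.14 without near-identical copies. All 5 small subunits fell, from Uqcrq (log2 -0.14) to Uqcrh (-0.91), and their summed level was 248 to 283 CPM with tunicamycin and 339 to 376 CPM with DMSO. Neither large core protein passed, and their sum was 421 to 440 CPM with tunicamycin and 420 to 463 CPM with DMSO.

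Uqcrh, the hinge protein that sits beside cytochrome c1, had the largest fall among members above 10 CPM. Uqcrh (ENSMUSG00000063882, chr4:116066965-116075071) had 52.0, 57.7 and 63.5 CPM as lowest, median and highest with tunicamycin, against 110, 98.9, 112 and 112 CPM with DMSO. Every tunicamycin library was far below the lowest DMSO library. The fitted level was 0.531 of that with DMSO, a log2 fold change of -0.91 ± 0.06 (adjusted p = 1.47e-09 by edgeR). Uqcr11 (ENSMUSG00000020163, chr10:80402997-80406830), a small subunit with a near-identical copy, had 32.6, 35.4 and 39.0 CPM with tunicamycin, against 54.4, 48.7, 52.7 and 49.8 CPM with DMSO. These groups did not overlap either, and the log2 fold change was -0.53 ± 0.05 (edgeR adjusted p = 1.76e-09), or -0.34 with the GC and length trend removed.

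The 2 subunits of complex III that carry electrons to cytochrome c differed. Uqcrfs1, the Rieske iron-sulfur protein, averaged 102 ± 4.75 CPM with tunicamycin and 132 ± 3.88 CPM with DMSO (SD, n = 6 and 4), a log2 fold change of -0.38 ± 0.04 (adjusted p = 8.77e-09 by edgeR). Cyc1, cytochrome c1, averaged 147 ± 5.61 CPM with tunicamycin and 150 ± 7.28 CPM with DMSO, a log2 fold change of -0.04 ± 0.04 that did not pass (edgeR adjusted p = 0.376). The core proteins Uqcrc1 and Uqcrc2 had log2 fold changes of -0.06 ± 0.04 and -0.03 ± 0.03 (edgeR adjusted p = 0.164 and 0.344). All 3 genes were called lower under upper-quartile scaling. With the GC and length trend removed, Uqcrc2 was called lower at -0.08 and Cyc1 higher at 0.08, while Uqcrc1 (-0.03) did not pass.

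Cytochrome c itself, the carrier between complexes III and IV, is encoded by Cycs, which has many near-identical copies. Cycs averaged 6.74 ± 0.36 CPM with tunicamycin and 7.63 ± 1.04 CPM with DMSO (SD, n = 6 and 4), with overlapping libraries and a log2 fold change of -0.18 ± 0.09 (adjusted p = 0.0713 by edgeR). The Cycs to Cyc1 ratio was 0.0411 to 0.0506 with tunicamycin and 0.0408 to 0.0594 with DMSO, and the log2 difference of -0.14 did not pass (exact permutation p = 0.205, adjusted p = 0.228). Without DMSO replicate 1 that difference was -0.25 and passed, and Cycs itself passed at -0.26.

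Complex IV, cytochrome c oxidase, had the lowest ratio of summed levels, and 11 of its 14 tested members were lower and 1 higher. Without Ndufa4 and Ndufa4l2 the count was 10 of 13. The median log2 fold change of the 14 was -0.23, about that of complex I, so the low ratio holds for the sum and not for the median gene. Of the 10 subunits used in most tissues 9 were lower, with a median log2 fold change of -0.24. Of the 6 isoforms known mainly from particular tissues 3 were too scarce to be tested, and of the others, all under 5 CPM, Cox6b2 was lower, Cox6a2 higher and Cox7a1 not called.

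Cox7b, a small transmembrane subunit, and Cox6b1, which joins the monomers on the intermembrane side, had the smallest p-values. Cox7b (ENSMUSG00000031231, chrX:106015700-106022450) had 80.1, 83.3 and 86.0 CPM as lowest, median and highest with tunicamycin, against 122, 116, 119 and 119 CPM with DMSO. Cox6b1 (ENSMUSG00000036751, chr7:30616861-30626151) had 109, 121 and 128 CPM with tunicamycin, against 186, 167, 182 and 178 CPM with DMSO. For each the gap between the groups was wider than the range within either. The log2 fold changes were -0.52 ± 0.03 for Cox7b (edgeR adjusted p = 3.8e-12) and -0.58 ± 0.04 for Cox6b1 (edgeR adjusted p = 2.55e-11).

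Cox4i1, the largest nuclear subunit, through which ATP is known to inhibit the enzyme, fell less, to 219 ± 9.79 CPM with tunicamycin, against 245 ± 9.28 CPM with DMSO (SD, n = 6 and 4; log2 -0.17 ± 0.04, edgeR adjusted p = 0.000289), and was not called with the GC and length trend removed (-0.03). Cox7a2 had a log2 fold change of -0.53 ± 0.04, and Cox7a2l, a related protein that joins complexes III and IV in supercomplexes, of -0.20 ± 0.04. The Cox7a2l to Cox7a2 ratio was 0.488 to 0.550 with tunicamycin and 0.399 to 0.425 with DMSO, a log2 difference of 0.34 (two-sided exact permutation test, adjusted p = 0.00794). Cox7a2l has a near-identical copy. Ndufa4 (log2 -0.38), Cox6c, Cox5a, Cox5b and Cox6a1 (-0.24 to -0.19) were lower as well, Cox6a1 turning to 0.0038 with the GC and length trend removed. Cox7c (log2 -0.13) did not pass and shares much of its sequence with copies.

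Cox6a2, the isoform of heart and skeletal muscle, was the member called higher. Cox6a2 (ENSMUSG00000030785, chr7:128205435-128206387) had 2.46, 2.99 and 3.28 CPM as lowest, median and highest with tunicamycin, against 2.12, 1.26, 2.03 and 1.45 CPM with DMSO. The groups did not overlap, and the log2 fold change was 0.76 ± 0.15 (edgeR adjusted p = 0.000169). Its exons overlap Itgad over 10.3% of their bases, and Itgad had at most 8 counts in a tunicamycin library and 4 in a DMSO library. The general isoform Cox6a1 was lower (159 ± 10.2 CPM with tunicamycin, 180 ± 6.72 CPM with DMSO, log2 -0.19), and the Cox6a2 to Cox6a1 ratio was 0.0150 to 0.0203 with tunicamycin and 0.00742 to 0.0117 with DMSO. This log2 difference of 0.96 passed the two-sided exact permutation test (adjusted p = 0.00794). Like all pairs here, this one was chosen with earlier results of these data known, and Cox6a1 has a near-identical copy.

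Cox6b2, the testis form of Cox6b1, moved the other way. Cox6b2 had 1.05, 1.45 and 1.64 CPM as lowest, median and highest with tunicamycin, against 4.34, 3.73, 2.81 and 2.18 CPM with DMSO. The groups stood apart, with a log2 fold change of -1.24 ± 0.18 (adjusted p = 3.02e-06 by edgeR). Cox7a1, another muscle isoform, averaged 0.617 ± 0.0734 CPM with tunicamycin and 0.73 ± 0.247 CPM with DMSO and did not pass (log2 -0.22 ± 0.24, edgeR adjusted p = 0.438). The Cox7a1 to Cox7a2 ratio differed by 0.34 on the log2 scale without passing (exact permutation adjusted p = 0.196), and by 0.51 with a pass when DMSO replicate 4 was left out.

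**Figure D3:**
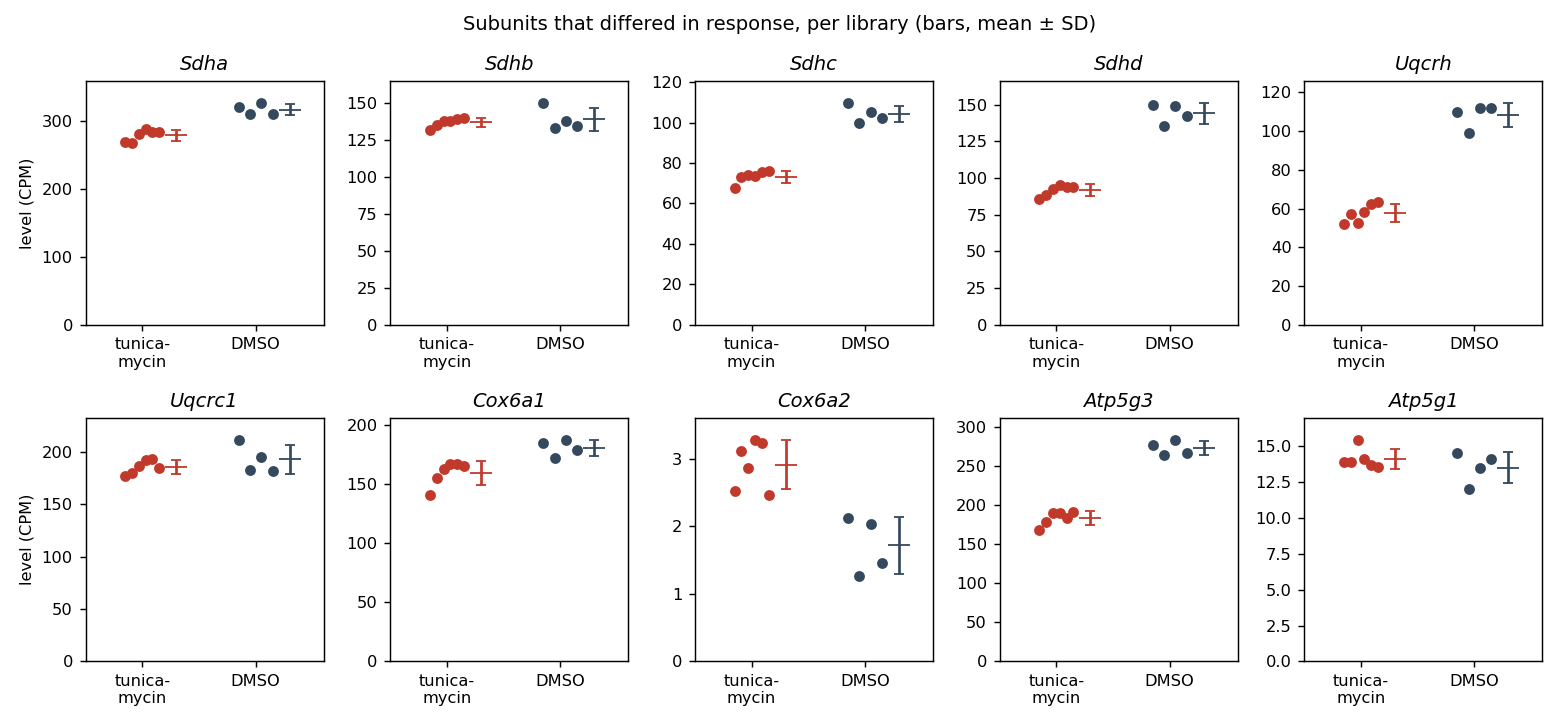
Level in CPM (y axis, from 0) of 10 subunit genes in each library, 6 with tunicamycin and 4 with DMSO, with the mean ± SD beside the points. Sdhc, Sdhd, Uqcrh and Atp5g3 are clearly lower with tunicamycin, Sdhb, Uqcrc1 and Atp5g1 overlap, and Cox6a2 is higher at 2.46 to 3.28 CPM.

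ATP synthase, complex V, is built from a soluble F1 head that makes ATP, a ring of c subunits that turns in the membrane, and a stalk that holds the head still. Of its 17 members 12 were lower and none higher, with a median log2 fold change of -0.26. The head and central stalk had 4 of 5 lower with a median of -0.18, and the peripheral stalk 4 of 4 lower with a median of -0.36. The small membrane subunits had 3 of 4 lower and a median of -0.49.

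Atp5mpl, a small membrane subunit, had the smallest p of all members. Atp5mpl (ENSMUSG00000021290, chr12:111961375-111966977) had 46.5, 49.3 and 51.3 CPM as lowest, median and highest with tunicamycin, against 83.5, 75.5, 76.8 and 79.2 CPM with DMSO. All tunicamycin libraries lay far below the DMSO libraries, and the log2 fold change was -0.69 ± 0.04 (edgeR adjusted p = 5.52e-13). Atp5k, subunit e, which helps pair the enzyme into dimers, had a log2 fold change of -0.57 ± 0.04 (adjusted p = 1.48e-10 by edgeR), and Atp5j2, subunit f, of -0.40. In the peripheral stalk Atp5j fell by 0.44, Atp5o by 0.39, Atp5h by 0.34 and Atp5f1 by 0.25 on the log2 scale, and 3 of these 4 have near-identical copies.

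The catalytic head subunits had the highest CPM of all members and the smallest falls among the called genes of the enzyme. Atp5b, the beta subunit that holds the active sites, averaged 1187 ± 43.9 CPM with tunicamycin and 1341 ± 39.7 CPM with DMSO (SD, n = 6 and 4; log2 -0.18 ± 0.03, edgeR adjusted p = 2.95e-05). Atp5a1, the alpha subunit, averaged 907 ± 19.9 CPM with tunicamycin and 1007 ± 35.8 CPM with DMSO (log2 -0.16 ± 0.03, edgeR adjusted p = 7.76e-05). The gamma subunit Atp5c1, the rotor shaft, had a log2 fold change of -0.07 ± 0.04 and did not pass (edgeR adjusted p = 0.0884), though it did under upper-quartile scaling and without DMSO replicate 2 (-0.10). Atp5e and Atp5d, the small subunits of the shaft's foot, were lower at -0.36 and -0.26, Atp5d standing at -0.14 with the GC and length trend removed.

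Atp5g1, Atp5g2 and Atp5g3 encode the same mature c subunit with different import peptides, and of these Atp5g3, the one with the most counts, passed as lower. Atp5g3 (ENSMUSG00000018770, chr2:73908447-73911326) had 168, 186 and 191 CPM as lowest, median and highest with tunicamycin, against 276, 264, 283 and 266 CPM with DMSO. These groups were far apart, with a log2 fold change of -0.58 ± 0.04 (adjusted p = 5.32e-12 by edgeR). Atp5g1 had 13.6, 13.9 and 15.5 CPM with tunicamycin, against 14.5, 12.02, 13.5 and 14.1 CPM with DMSO, which overlap (log2 0.06 ± 0.06, edgeR adjusted p = 0.462). Atp5g2 averaged 1.27 ± 0.209 CPM with tunicamycin and 1.20 ± 0.233 CPM with DMSO (log2 0.05 ± 0.18, edgeR adjusted p = 0.813). Counts of Atp5g1 and Atp5g2 are uncertain, since near-identical copies cover 11.6% and 87.4% of their transcript words.

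Of these c subunit genes, Atp5g1 and Atp5g2 each differed in response from Atp5g3 by a test of their ratio, but not from each other. The Atp5g1 to Atp5g3 ratio was 0.0710 to 0.0830 with tunicamycin and 0.0456 to 0.0530 with DMSO, a log2 difference of 0.64 (two-sided exact permutation test, adjusted p = 0.00794). For Atp5g2 to Atp5g3 the difference was 0.65 (exact p = 0.00952, adjusted p = 0.0136), and for Atp5g1 to Atp5g2 it was -0.01 (exact p = 0.948). Summed over the 3 genes, the counted c subunit transcripts held 183 to 206 CPM with tunicamycin and 277 to 298 CPM with DMSO, a ratio of 0.692. Atp5g3 made up most of this sum, with means of 183 CPM with tunicamycin and 272 CPM with DMSO. Since counts of Atp5g1 and Atp5g2 are uncertain, the ratio mainly describes Atp5g3 and may not hold for all c subunit transcripts. Coupling factor B, encoded by Atp5s, had a log2 fold change of 0.04 ± 0.06 and did not pass, nor did Atp5l (subunit g, -0.19 ± 0.14), most of whose sequence occurs in copies.

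Levels between genes were compared per kilobase of the principal transcript, among members without near-identical copies. On this scale Atp5b was highest, with 620 ± 22.9 CPM per kb with tunicamycin and 700 ± 20.7 with DMSO. With tunicamycin there followed Atp5a1 (367 CPM per kb), Cox4i1 (287), Atp5g3 (253), Ndufa4 (216) and Cox6b1 (194). With DMSO there followed Atp5a1 (408 CPM per kb), Atp5g3 (377), Cox4i1 (321), Cox6b1 (288) and Ndufa4 (279), where Cox6b1 and Ndufa4 differed by less than the SD of Cox6b1 (13.3 CPM per kb). Atp5g3 and Cox6b1 thus stood lower in the order with tunicamycin than with DMSO. Sdhd was at 74.5 ± 3.18 CPM per kb and Sdhb at 120 ± 2.59 with tunicamycin, while with DMSO they were nearly level, at 117 ± 5.64 and 121 ± 6.63 (SD, n = 6 and 4).

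Members with short proteins had the larger falls, a pattern noticed after the values were seen. The 21 tested members under 100 residues had 18 lower and a median log2 fold change of -0.36, the 38 from 100 to under 200 residues had 31 lower and -0.25, and the 22 with at least 200 had 15 lower and -0.12. Across the 81 genes, which are not independent replicates, Spearman's rho between protein length and log2 fold change was 0.47. It was 0.58 over the 61 members without near-identical copies, and 0.37 with the GC and length trend removed. The same direction was present among all protein-coding genes tested, with rho of 0.13 over 13881 genes. Their medians were -0.28 for 272 genes under 100 residues, -0.13 for 1420 genes from 100 to under 200 and 0.01 for 12189 genes with at least 200. Short proteins tend to have short transcripts, and rho with transcript length was 0.40 over the 81 members. Which of the 2 lengths goes with the falls was not tested.

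**Figure D4:**
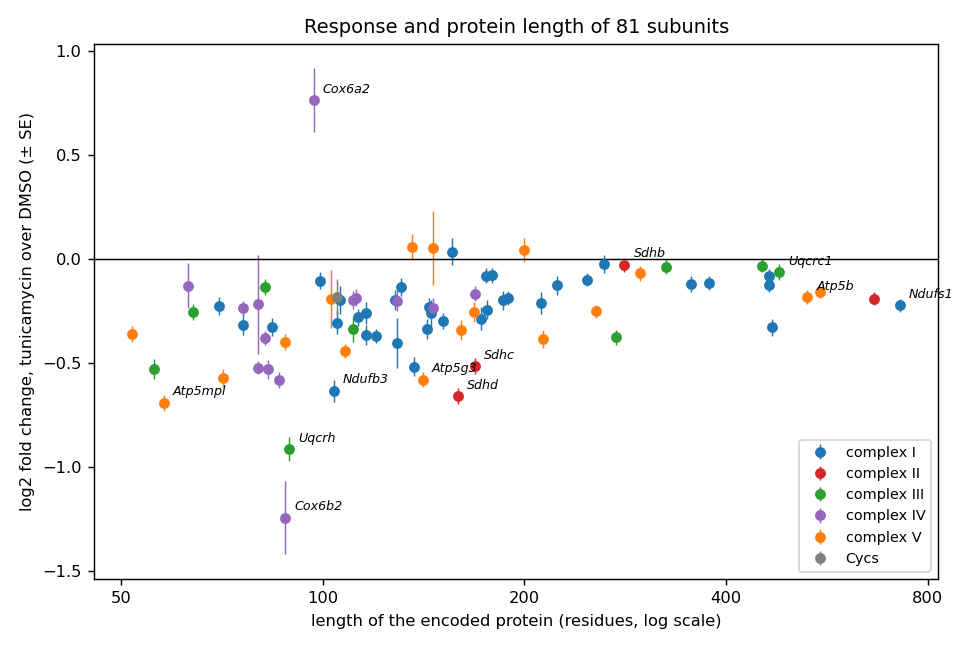
Log2 fold change, tunicamycin over DMSO (y axis, bars ± SE), against the length of the encoded protein in residues (x axis, log scale) for 81 subunit genes coloured by complex. Points under 100 residues reach lower values, apart from Cox6a2 above 0, while members of 200 residues or more lie between -0.39 and 0.04.

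Genes that assemble the complexes had calls in both directions, as all genes tested did (32.5% lower and 31.8% higher). Of 17 tested complex I assembly genes 6 were lower and 4 higher (median log2 fold change -0.03), and of 22 for complex IV 8 were lower and 7 higher (-0.09), shares not far from that background. Tmem126b and Dmac1, which help build the membrane arm of complex I, fell with log2 fold changes of -0.51 ± 0.05 and -0.49 ± 0.06 (edgeR adjusted p = 6.86e-09 and 1.8e-07). Sco1, a copper chaperone of complex IV, was higher at 0.68 ± 0.06 (edgeR adjusted p = 1.91e-09), and Coa3, which works with newly made Cox1 protein, was lower at -0.60 ± 0.06 (edgeR adjusted p = 1.09e-08).

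The smaller assembly lists were mixed too. For complex II, Sdhaf4 was lower at -0.67 and Sdhaf3 higher at 0.57, with 2 lower and 1 higher of 4. For complex III 4 of 6 were lower and 2 higher, led by Uqcc3 (-0.54) and Ttc19 (0.24). Of the 3 assembly genes of ATP synthase 2 were higher, Tmem70 (0.29) and Atpaf2 (0.34). By contrast all 5 tested chain genes outside the symbol rule were lower, with a median of -0.35, among them Higd2a (-0.47) and Higd1a (-0.37), small proteins that associate with complexes III and IV.

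Transcripts of regulators of mitochondrial biogenesis moved in the direction opposite to most subunits. Of 15 genes 12 were higher and 2 lower, where 31.8% of all genes tested were higher and 32.5% lower. The median log2 fold change of the 15 was 0.49. Their summed level was 482 to 510 CPM with tunicamycin and 359 to 373 CPM with DMSO. Tfam, which packages and transcribes mitochondrial DNA, averaged 76.5 ± 2.89 CPM with tunicamycin and 49.2 ± 2.11 CPM with DMSO (SD, n = 6 and 4; log2 0.63 ± 0.04, edgeR adjusted p = 3.34e-12). The coactivator Pprc1 was higher at 0.53 ± 0.04 (edgeR adjusted p = 3.26e-10). Genes for the factors whose motifs were searched above were higher as well: Nrf1 by 0.72, Gabpa by 0.51, Gabpb1 by 0.66 and Yy1 by 0.44 on the log2 scale. Esrra (-0.16) and Polrmt (-0.13) were lower. The 7 tested mitochondrially encoded genes were all lower, with a median of -0.30. Among them mt-Nd4 and mt-Nd1 had the smallest p-values (log2 -0.27 and -0.31) and mt-Nd2 the greatest fall (-0.37). The other 6 were listed at 0 in every library. They include mt-Co2 and mt-Co3, while mt-Co1 averaged 8512 CPM with tunicamycin and 9981 CPM with DMSO. The zeros are not read here as absent expression, and their cause was not tested.

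**Figure D5:**
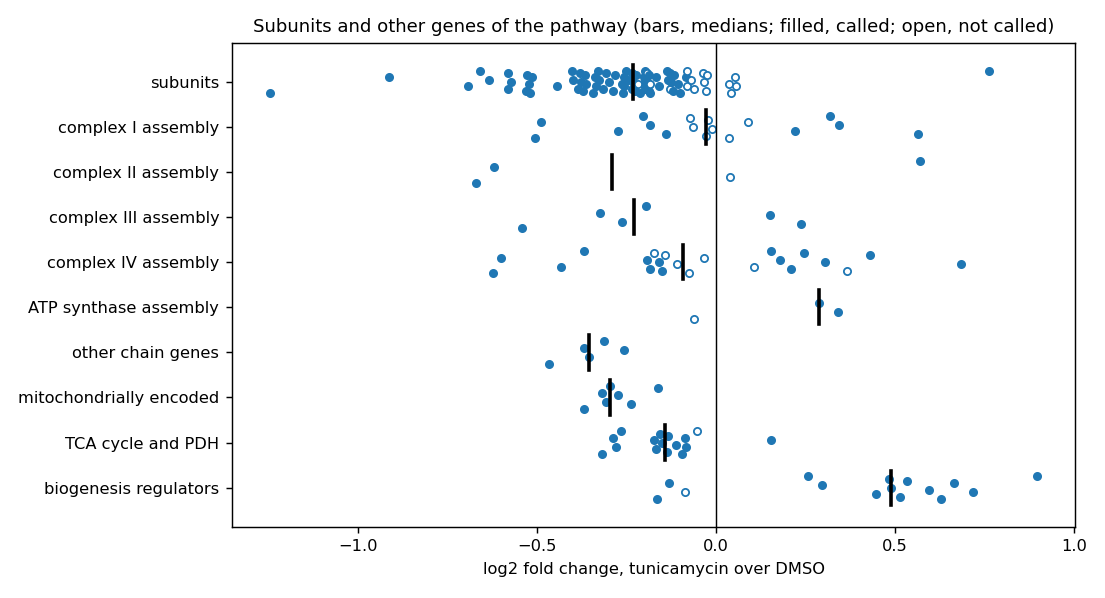
Log2 fold change, tunicamycin over DMSO (x axis), of every tested gene in the subunit set and in 9 other lists of the pathway, with filled points passing edgeR's test and a bar at each median. Subunits centre on -0.23, assembly lists spread to both sides of 0, and biogenesis regulators centre on 0.49.

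Sequencing lanes were read only from the names under which the data were deposited, since the library titles give none. Each lane held both groups, and the fall was present in each. The median log2 difference of the members was -0.27 in lane 1 (2 tunicamycin and 2 DMSO libraries), -0.24 in lane 2 and -0.21 in lane 3 (2 and 1 each). Of the members 68 were lower in all 3 lanes, where 38.2% of all genes were. The authors' deposited table of lower genes holds 65 members, 64 of them called lower here, and their table of higher genes holds Cox6a2 alone.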

How the data were processed

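Polyadenylated RNA of 6 tunicamycin and 4 DMSO libraries was read as 50 bp single ends with a kit that does not mark strand, per the labels' protocols. Per the submitters' processing notes, which assign no roles, the tools were STAR 2.5.2b, Subread 1.5.1 with featureCounts, FastQC 0.11.5 and DESeq2, on mm10. No source used here gives the annotation release, the strand setting or how multi-mapping reads were handled.

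The authors deposited whole-number counts per Ensembl gene and library, without normalization, summing to 2.11e+07 to 2.92e+07. They also deposited tables of higher and lower genes with a log2 fold change, an adjusted p-value and a normalized signal per library, which was not used. GENCODE M21 (GRCm38, another name of mm10) named 48349 of the 48709 identifiers, and the 360 others held 0.0462% of counts.

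All genes were fitted with edgeR 4.0.16 in R 4.3.3 (quasi-likelihood F test, robust, two-sided, TMM, filterByExpr), with Benjamini-Hochberg adjustment over 15660 genes and calls at 0.05. The standard error is the log2 fold change divided by the square root of F. CPM are counts per 1e6 of the library total. Pairs of genes were compared by the log2 ratio of counts + 0.5 within a library, for 10 of 12 listed pairs with at least 10 counts in every library. A near-identical copy means that 10% or more of the 50-base words of the principal transcript occur in transcripts of genes elsewhere. The code was tested on simulated data. No libraries of a group agreed within sampling noise (chi-square per degree of freedom 2.18 to 10.5).

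Members, lists and pairs were chosen with earlier results of these data known. Every member could be named. In full are the 2 members per complex with the smallest p, members called against the majority, members of the pairs, and of each other list the 2 with the smallest p. Other list genes, and the subunit classes, were chosen after values were seen. Alternatives were other size factors, upper-quartile scaling, DESeq2 1.42.0, other filters, lane or replicate number as a term, removal of a GC and length trend (mgcv 1.9.3), each library left out, and members with copies left out. Leaving out overlapping members was added after seeing the data.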

Additional observations from a re-analysis of the deposited data

Results flagged for a closer look

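In 9 of 172 groups of libraries, 1 library lay farther from its nearest neighbour, relative to the group's range, than Dixon's 95% critical value allows, and chance flags about 1 in 20 groups. Tunicamycin replicate 1 was the library concerned in 6 of the 9, each time as the lowest. Its levels were 57.8 CPM for Ndufb8 (64.4 to 67.7 CPM in the other tunicamycin libraries), 47.7 CPM for Ndufa6 (52.5 to 55.3), 82.1 CPM for Uqcrq (90.1 to 94.8), 35.7 CPM for Cox5b (39.8 to 41.2), 99.1 CPM for Atp5o (109 to 114) and 115 CPM for Atp5d (133 to 141). Tunicamycin replicate 4 had the highest Ndufc1 at 28.3 CPM (24.2 to 25.2 in the others). Tunicamycin replicate 3 had the highest Atp5g1 at 15.5 CPM (13.6 to 14.1). DMSO replicate 2 had the lowest Uqcrh at 98.9 CPM (110 to 112).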

How the results depend on the processing

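Depth limits Cox6b2, Cox6a2, Cox7a1, Atp5g2, Ndufb4 and Atp5l, whose group means lay under 5 CPM. Of 506 recomputed summary values 482 kept their direction and side of the threshold and, for counts and medians, stayed near the reported value, and the other 24 are given here, those with 1 library left out as ranges. With all 81 tested members kept, those called lower numbered 58 (GC and length trend removed) to 74 (upper-quartile scaling), with 61 by DESeq2, 59 with the replicate number as a block (median -0.25) and 59 to 67 with 1 library left out. They numbered 51 without members that have near-identical copies and 56 without overlapping members. Same-numbered libraries did not deviate together (r = -0.22 to 0.01), so the numbers were not taken as pairs, and 27 of the 36 complex I members were called under the block, where Ndufb4 (-0.33) lost its call. Upper-quartile scaling moved the median of all genes by -0.11 (6934 lower, 3632 higher) and those of the members to -0.35, complex I -0.34, II -0.47, III -0.37, IV -0.34 and V -0.37. With the GC and length trend removed, 3 members were called higher, 1 each in complexes I and III, and the medians were -0.16 (I) and -0.12 (III). Of the members called with or without this trend, 5 changed sign: Ndufb9 0.066, Cyc1 0.081, Ndufs7 0.0053, Ndufa2 0.0048 and Cox6a1 0.0038. A further 6 lost their call, Cox4i1 and 5 in complex I, and 3 gained one (Ndufs4, Uqcrc2 and Cycs). Ndufs3 (0.0395), Sdhb (0.0295), Ndufab1 (-0.0313) and Atp5s (-0.0057) also changed sign, without a call in either fit. Without near-identical copies the medians were -0.14 (III), -0.38 (IV) and -0.36 (V), with 7 lower in complex IV, fewer members being counted. Without overlapping members 0 were called higher, since Cox6a2 is among them. The Atp5g1 to Atp5g2 log2 difference was 0.011 with count + 5 and -0.14 to 0.11 with 1 library left out. The Cycs to Cyc1 difference was then -0.25 to -0.065, and Cox7a1 to Cox7a2 0.19 to 0.51. Other causes were not tested.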

Other observations

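Genes of the tricarboxylic acid cycle and of pyruvate dehydrogenase, which supply the chain with NADH and succinate, were also mostly lower with tunicamycin. Of 16 tested genes 14 were lower and 1 higher by edgeR's test, where 32.5% of all genes tested were lower and 31.8% higher. The median of the 16 was -0.14 on the log2 scale. Their summed level was 2722 to 2860 CPM with tunicamycin and 3044 to 3236 CPM with DMSO. Citrate synthase, encoded by Cs, averaged 323 ± 5.91 CPM with tunicamycin and 391 ± 12.4 CPM with DMSO (SD, n = 6 and 4), a log2 fold change of -0.29 ± 0.03 (adjusted p = 2.64e-08 by edgeR). Idh3a, a subunit of the NAD-dependent isocitrate dehydrogenase, averaged 188 ± 3.3 CPM with tunicamycin and 233 ± 10.9 CPM with DMSO (log2 -0.32 ± 0.03). Dld, the dehydrogenase subunit shared by the pyruvate and oxoglutarate complexes, was higher, at 197 ± 6.46 CPM with tunicamycin and 176 ± 3.04 CPM with DMSO (log2 0.15 ± 0.03, edgeR adjusted p = 0.000258), and was named after its value was seen. Of the subunits of succinyl-CoA ligase, which makes succinate, Sucla2 and Suclg1 were lower (log2 -0.09 and -0.14) and Suclg2 was not called (-0.05), and Fh1, fumarate hydratase, was lower at -0.16.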
